A study of Mus musculus with 6 samples.

Results

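The genes described here are 9 targets and feedback components of the Wnt/beta-catenin pathway, namely Axin2, Lgr4, Lgr5, Rnf43, Znrf3, Sp5, Nkd1, Lef1 and Glul. They were found in the expression table by their Ensembl identifiers and make up 9 of its 52550 genes. The RNA came from the livers of CD-1 mouse embryos that carried the Sox9-GFP reporter, which labels cells expressing the biliary transcription factor SOX9. Pooled livers were dissociated, hematopoietic cells were depleted with magnetic beads, GFP-positive cells were sorted, and total RNA was sequenced. Each stage, E16.5 and E18.5, had 3 libraries, called replicates A, B and C. The sample labels give embryonic days 16 and 18, and the stages are named here after the study's methods. Strain, genotype and procedure were shared by both groups, and no agent was given. The sort used GFP alone, so any GFP-positive cell could enter it. The sources do not say how the pools of a stage differed beyond being separate samples, so p-values measure the spread between these libraries.

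Wnt proteins bind Frizzled receptors and LRP co-receptors and keep beta-catenin from degradation, so that it enters the nucleus and activates genes with TCF and LEF factors. Several of these genes act back on the pathway: AXIN2 is a scaffold of the complex that degrades beta-catenin, RNF43 and ZNRF3 remove Frizzled from the cell surface, and R-spondins bound to LGR4 or LGR5 block that removal. In the adult liver the pathway is known for setting the metabolic zone around the central vein, where hepatocytes express glutamine synthetase, the product of Glul.

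Levels are given in TPM, in which reads are divided by the length of the gene and brought to a common total. The libraries held 13093937 to 26206374 reads recovered from the TPM, and each E18.5 library was shallower than each E16.5 library. Intervals are 95% exact (Clopper-Pearson) intervals of the reads. They cover counting error only, because no molecular identifiers are described and several reads may stem from 1 molecule. Biliary RNA was present in every library, with Sox9 at 69.5 to 186 TPM at E16.5 and 353 to 466 TPM at E18.5, and Krt19 at 20.1 to 122 TPM and 227 to 250.1 TPM. Hepatoblast RNA was abundant too, with Afp at 24970 to 31450 TPM at E16.5 and 2214 to 4857 TPM at E18.5. In such bulk samples fewer cells of a type and less RNA per cell cannot be told apart.

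The 9 genes ranged widely in level. At E16.5, Glul was the highest with 247 ± 27.8 TPM (SD, n = 3), above 98.7% of the protein-coding genes, and Lgr4 followed with 66.7 ± 9.84 TPM. Rnf43 (32.1 ± 3.27 TPM) and Znrf3 (25.4 ± 3.12 TPM) came next and overlapped each other. Axin2 (3.07 ± 1.48 TPM), Lgr5 (1.64 ± 0.337 TPM) and Nkd1 (1.34 ± 0.138 TPM) formed a lower tier in which each gene overlapped the next. Lef1 (0.314 ± 0.0357 TPM) and Sp5 (0 to 0.305 TPM) were lowest and overlapped as well.

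By E18.5 the order had shifted at both ends. Lgr4 had the highest mean, 196 ± 34.1 TPM, above 98.0% of the protein-coding genes, and overlapped Glul (169.8 ± 43.75 TPM). Rnf43 (37.5 ± 3.70 TPM) again overlapped Znrf3 (34.0 ± 1.64 TPM), and Axin2 (5.14 ± 0.441 TPM) overlapped Nkd1 (4.36 ± 1.78 TPM). Lgr5, next to Nkd1 at E16.5, now stood with Lef1 (0.6355 ± 0.293 and 0.863 ± 0.398 TPM), and Sp5 was last (0 to 0.2345 TPM). At both stages Glul and Lgr4 lay above Rnf43 and Znrf3, these above Axin2, and Nkd1 above Lef1, with no overlap of libraries at these steps.

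**Figure D1:**
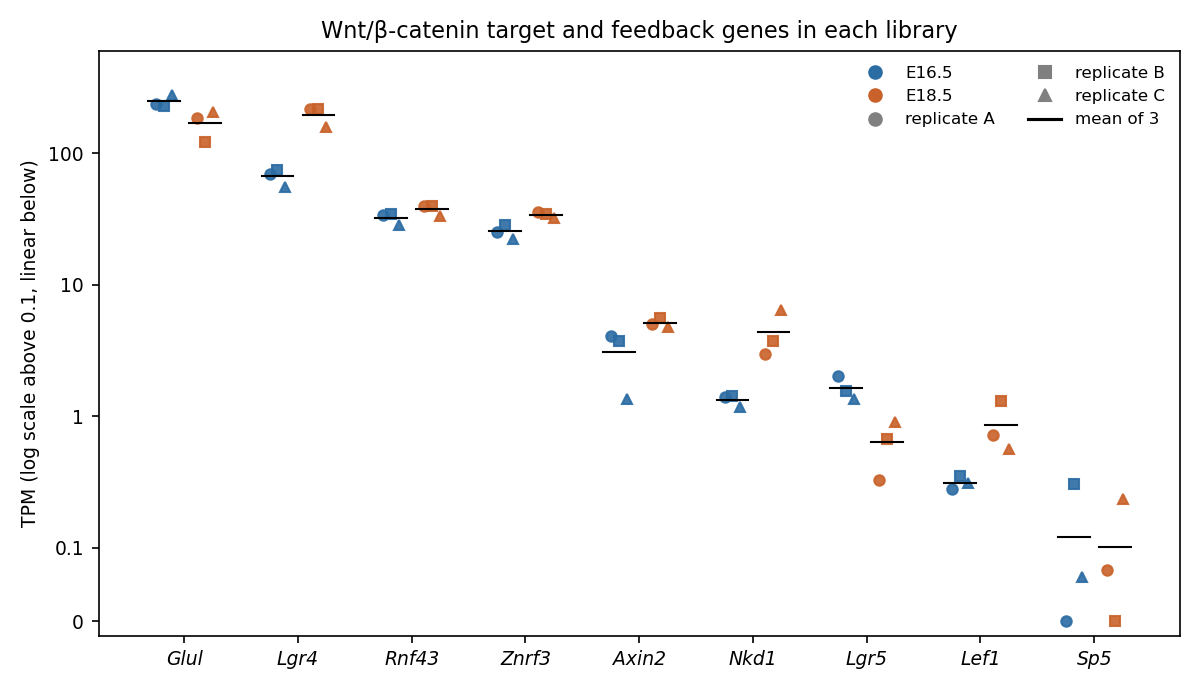
TPM (vertical axis, log scale above 0.1 and linear below) of the 9 genes in each of the 6 libraries, with blue for E16.5, orange for E18.5, a marker shape for each replicate and a line for the mean of 3 libraries. Lgr4 lies at 157 to 217 TPM at E18.5, above its 55.8 to 74.9 TPM at E16.5, while Lgr5 lies lower at E18.5 and Sp5 is near 0 throughout.

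To compare the stages, limma was run on log2(TPM + 1) over the 22452 genes whose mean reached 1 TPM. This scale understates the change of low genes. Of the 9 genes 7 were tested, Lef1 and Sp5 being too low, and Lgr5 reached the filter only through E16.5. Lgr4 and Nkd1 rose, 2 of the 7, while 26.0% of all genes tested were called higher at E18.5. None of the 7 was called lower by limma, against 5.22% of all genes. Limma voom on the recovered reads called 2 lower, beside 1362 of 20425 genes. At an unadjusted p under 0.05 from limma 1 was lower, and the share of all genes at that p was not counted. The median log2 fold change was 0.41 for the 7 genes and 0.42 for all genes, so most TPM values were somewhat higher at E18.5.

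Median-of-ratios scaling moved the median of all genes to 0.02 and that of the 7 genes to -0.03. Lgr4 was then the one gene called higher, beside 6.80% of all genes. None was called lower by limma in that scaling, beside 10.4% of all genes. At an unadjusted p under 0.05 from limma 3 were lower, again without a counted share of all genes. In TPM, 4 of the 7 genes had all E18.5 libraries above all E16.5 libraries (Lgr4, Nkd1, Axin2 and Znrf3), as did 45.0% of all genes. For 2 genes (Lgr5 and Glul) all E18.5 libraries were below, as for 8.30% of all genes. The share of the 7 genes that rose was thus near that of all genes.

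**Figure D2:**
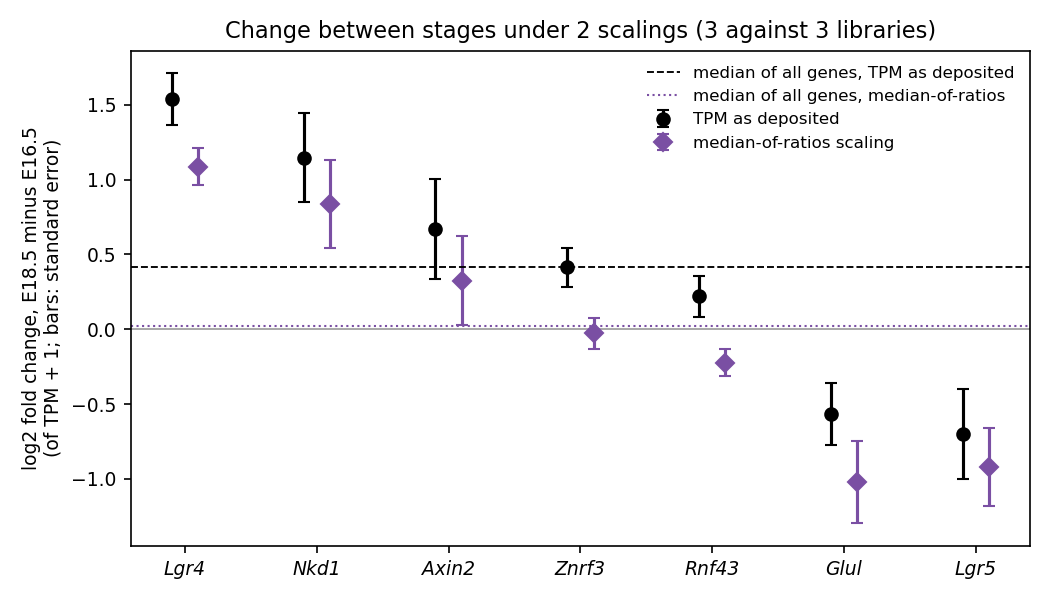
Log2 fold change of TPM + 1 (vertical axis, E18.5 minus E16.5, bars are standard errors from limma, 3 against 3 libraries) for the 7 genes tested, with black circles for TPM as deposited, purple diamonds for median-of-ratios scaling and horizontal lines for the medians of all genes. Lgr4 is highest in both (1.54 and 1.09), and Glul (-0.57 and -1.02) and Lgr5 (-0.70 and -0.92) lie below 0 in both.

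Lgr4 (ENSMUSG00000050199.13, chromosome 2 from 109917647 to 110014257, forward strand, GRCm38), a receptor for R-spondins, was the gene of the set with the steadiest change. It had 69.3, 74.9 and 55.8 TPM at E16.5 (replicates A, B and C), against 217, 215 and 157 TPM at E18.5. Each E18.5 library was more than 2 times as high as any E16.5 library. Lgr4 rose 2.94-fold in mean TPM, and limma gave 1.54 ± 0.17 (log2 fold change ± standard error) with an adjusted p of 0.00779, a change above that of 96.5% of the genes tested. Median-of-ratios scaling gave 1.09 ± 0.125 with an adjusted p of 0.0107. The call held in 15 of 15 alternative settings. Biliary RNA moved with Lgr4, since 10 of 11 biliary genes rose, beside 26.0% of all genes tested (5 with median-of-ratios scaling, beside 6.80%). Their median log2 fold change was 1.68. Their summed levels were 1993, 2519 and 749.8 TPM at E16.5 (A, B and C), against 11800, 13980 and 8153 TPM at E18.5. Spp1 alone made up most of these sums, with 1278, 1767 and 469 TPM at E16.5 and 10010, 12120 and 6629 TPM at E18.5. Replicate C was the lowest library of each stage for both Lgr4 and the biliary sum. It was also the lowest of each stage for the summed levels of Wnt receptor and proliferation genes, and the highest for those of hepatoblast genes. The part of biliary RNA in the Lgr4 level was not tested. The 100 bases before its RefSeq start (chr2:109917547-109917646, forward strand, GRCm38.p6) are printed to show the upstream end of this gene. They hold 60.0% G and C, where the median of all listed promoters is 55.0%.
Lgr4: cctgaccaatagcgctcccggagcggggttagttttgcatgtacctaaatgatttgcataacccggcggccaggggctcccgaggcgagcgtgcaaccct

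Lgr5 (ENSMUSG00000020140.15, chromosome 10 from 115450311 to 115587780, reverse strand), the close relative of Lgr4 and a stem cell marker in several epithelia, stood the other way. It had 2.01, 1.55 and 1.36 TPM at E16.5 (replicates A, B and C), against 0.328, 0.667 and 0.912 TPM at E18.5. These values came from 111 to 177 reads a library at E16.5 and 23 to 38 reads at E18.5. All E18.5 libraries were lower than all E16.5 libraries, although the interval of the highest at E18.5 (0.645 to 1.25 TPM) overlapped that of the lowest at E16.5 (1.115 to 1.63 TPM). The mean was 2.58-fold higher at E16.5, but the difference of -0.70 ± 0.30 did not pass the test (limma adjusted p = 0.111). Over 13 alternatives the value lay between -1.69 and -0.56, and 3 of them called it.

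Because a plain ratio of genes within a library does not depend on scaling between libraries, Lgr5 was also set against Lgr4. Lgr5 over Lgr4 in TPM was 0.0290, 0.0207 and 0.0243 in replicates A, B and C of E16.5, against 0.00151, 0.00310 and 0.00582 in those of E18.5. No ratio of E18.5 reached a ratio of E16.5. The log2 ratio of TPM + 1 was -4.68 ± 0.19 at E16.5 and -6.91 ± 0.50 at E18.5 (SD, n = 3, exact two-sided permutation p = 0.1). That p is the smallest that 3 against 3 libraries allow. Over the 4 ratios tested the adjusted p (Benjamini-Hochberg) of this exact test was 0.2. Unlike the plain ratio, the tested ratio of TPM + 1 does depend on the scaling, most where a gene is low. Its difference was -2.24, and -2.86 with a pseudocount of 0.1.

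Rnf43 (ENSMUSG00000034177.15, chromosome 11 from 87662722 to 87735539, forward strand) and Znrf3 (ENSMUSG00000041961.14, chromosome 11 from 5276324 to 5444847, reverse strand) encode the membrane ubiquitin ligases that R-spondins hold in check. Rnf43 had 33.75, 34.25 and 28.35 TPM at E16.5 (replicates A, B and C), against 39.7, 39.6 and 33.3 TPM at E18.5. The stages overlapped, and the direction depended on the scaling, with 0.22 ± 0.14 for TPM as deposited (limma adjusted p = 0.239) and -0.22 ± 0.09 for median-of-ratios scaling (limma adjusted p = 0.129). Znrf3 had 25.2, 28.6 and 22.4 TPM at E16.5 (replicates A, B and C), against 35.5, 34.3 and 32.3 TPM at E18.5. Its stages did not overlap, with 0.41 ± 0.13 for TPM as deposited (limma adjusted p = 0.0525), just short of the threshold, and -0.03 for median-of-ratios scaling (limma adjusted p = 0.881). Rnf43 over Znrf3 in TPM was 1.34, 1.20 and 1.27 at E16.5 and 1.12, 1.15 and 1.03 at E18.5, in the order A, B and C. The ratio was lower in each E18.5 library, with a difference of -0.19 in the log2 ratio of TPM + 1 (exact two-sided permutation p = 0.1, adjusted 0.2).

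Axin2 (ENSMUSG00000000142.15, chromosome 11 from 108920349 to 108950783, forward strand) is widely used as a readout of the pathway. An antisense gene shares 3.80% of its exon sequence, and whether the counting used strand is not given in the sources used here. Axin2 had 4.09, 3.75 and 1.37 TPM at E16.5 (replicates A, B and C), against 5.07, 5.61 and 4.74 TPM at E18.5. The stages did not overlap, but replicate C of E16.5 stood apart from A and B, with an interval of 1.04 to 1.76 TPM. The interval of replicate A of E16.5 (3.53 to 4.71 TPM) overlapped those of replicates A (4.38 to 5.84 TPM) and C (3.88 to 5.73 TPM) of E18.5. The difference of 0.67 ± 0.33 did not pass the test (limma adjusted p = 0.153), and without replicate C of E16.5 it was 0.32 (limma adjusted p = 0.317). None of 14 alternatives, limma voom among them, called Axin2.

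Replicate C of E16.5 was also the lowest library for the 11 biliary genes given above for Lgr4. The part of this in the Axin2 level was not tested. Axin1, the constitutive relative of Axin2, rose from 46.7 ± 5.54 to 76.7 ± 9.13 TPM (SD, n = 3, limma adjusted p = 0.0159), a call that was lost with median-of-ratios scaling (limma adjusted p = 0.0669). Axin2 over Axin1 in TPM was 0.0823, 0.0749 and 0.0339 at E16.5 and 0.0673, 0.0650 and 0.0694 at E18.5. The log2 ratio of TPM + 1 differed by -0.03 (exact two-sided permutation p = 1.0, also after adjustment), less than the SD of 0.44 among the E16.5 libraries.

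Nkd1 (ENSMUSG00000031661.12, chromosome 8 from 88521354 to 88594884, forward strand) encodes a protein that binds Dishevelled and dampens the signal. It had 1.41, 1.43 and 1.18 TPM at E16.5 (replicates A, B and C), against 2.98, 3.73 and 6.375 TPM at E18.5. The reads behind these values numbered 43 to 55 a library at E16.5, against 87 to 118 at E18.5, and no interval of E18.5 (lowest bound 2.41 TPM) reached one of E16.5 (highest bound 1.89 TPM). Nkd1 rose 3.25-fold in mean TPM, with 1.15 ± 0.30 on the log2 scale (limma adjusted p = 0.0296). The call was lost when any 1 of the 6 libraries was left out (limma adjusted p from 0.0571 to 0.0742) and with median-of-ratios scaling (0.84, limma adjusted p = 0.1). Mesenchyme RNA had the same order as Nkd1 among the E18.5 libraries, with summed levels of 8 genes at 241, 423 and 683 TPM in A, B and C. The E16.5 libraries did not share the order of Nkd1, with mesenchyme sums of 241, 108 and 180.5 TPM in A, B and C. An endothelial sum of 7 genes had the E18.5 order of Nkd1 as well (95.0, 183 and 187 TPM). The part of these cells in the Nkd1 level was not tested.

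Lef1 (ENSMUSG00000027985.14, chromosome 3 from 131110471 to 131224356, forward strand) encodes a DNA-binding partner of beta-catenin, and an antisense gene shares 13.7% of its exon sequence. It had 0.279, 0.350 and 0.314 TPM at E16.5 (replicates A, B and C), against 0.715, 1.31 and 0.560 TPM at E18.5. All E18.5 libraries were higher, yet they rested on 20 to 59 reads, and the interval of replicate C of E18.5 (0.342 to 0.8655 TPM) overlapped that of each E16.5 library. Without the filter on low values the difference was 0.48 ± 0.23 (limma adjusted p = 0.237). Replicate B of E18.5, the highest for Lef1, was also the highest for 8 B lymphoid genes, whose summed levels were 19.4, 32.6 and 17.1 TPM in A, B and C of E18.5 and 8.04 to 9.58 TPM at E16.5. Lymphoid progenitors are known to express Lef1, the depletion before the sort was directed at B cells among others, and their part in the Lef1 level was not tested. Of 6 T lymphoid genes 1 was tested and did not pass, with summed levels of 2.04 to 3.66 and 4.63 to 6.28 TPM.

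The related factor Tcf7l2 was far more abundant than Lef1. It rose from 20.3 ± 3.87 to 36.6 ± 3.01 TPM (SD, n = 3, limma adjusted p = 0.0165), a call that was lost with median-of-ratios scaling (limma adjusted p = 0.0536). Lef1 over Tcf7l2 in TPM was 0.0120 to 0.0197 at E16.5, against 0.0169 to 0.0344 at E18.5. The log2 ratio of TPM + 1 differed by -0.35 (exact two-sided permutation p = 0.3, adjusted 0.4) and with a pseudocount of 0.1 by 0.28, so its direction depended on the pseudocount.

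**Figure D3:**
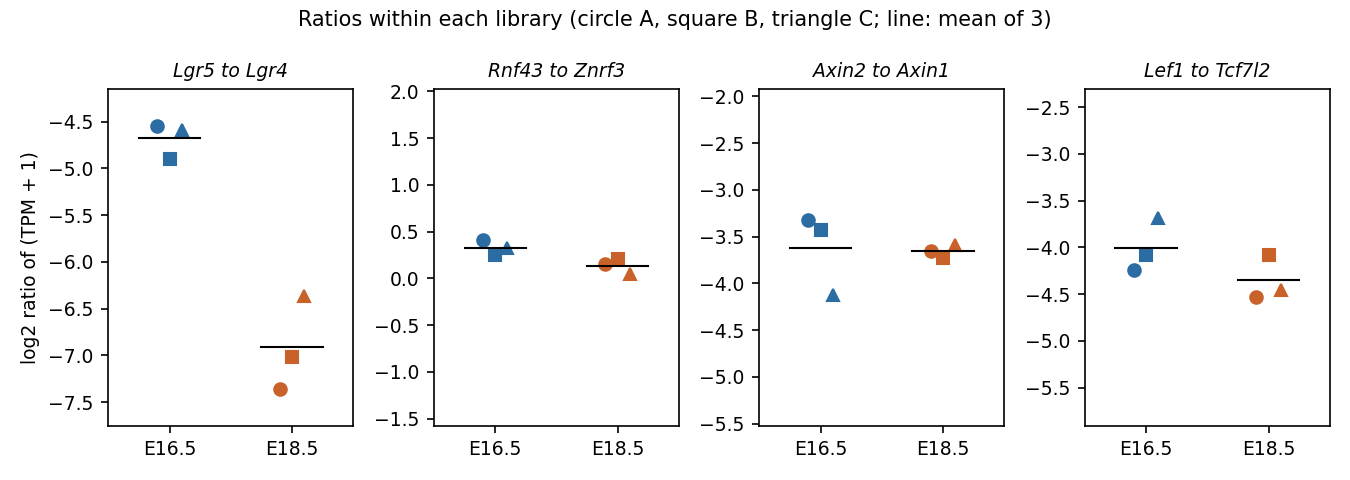
Log2 ratio of TPM + 1 within each library (vertical axis, the same span in each panel) for 4 pairs of genes, with circles, squares and triangles for replicates A, B and C, colours for the stages and a line for the mean of 3 libraries. Lgr5 to Lgr4 differs most, -4.68 against -6.91, and the other pairs differ by -0.35 to -0.03.

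Sp5 (ENSMUSG00000075304.2, chromosome 2 from 70474923 to 70477729, forward strand), a zinc finger gene and direct Wnt target in many embryonic tissues, was barely detected. It had 0, 5 and 1 reads in replicates A, B and C of E16.5, against 1, 0 and 2 reads in those of E18.5. The libraries with 0 reads, replicate A of E16.5 and replicate B of E18.5, had exact upper bounds of 0.205 and 0.344 TPM, and 3 reads would have given 0.167 and 0.2795 TPM there. A difference between the stages was not detectable at this depth.

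Stretches before a start of Sp5 and a start of Lef1 are shown because they held the letters that TCF and LEF factors recognise. The motif CTTTGA, or TCAAAG for the other strand, was searched in the 250 bases before each RefSeq start (GRCm38.p6). It was found in 13.8% of 32851 promoters, and 1.37% held 2 or more matches. Of the 9 genes 7 were listed, with 11 starts, and 2 starts held matches, 2 each. Lgr5 and Znrf3 were not among them. The matches are in capitals in the stretches chr2:70474699-70474844 and chr3:131156094-131156199, both on the forward strand. That of Lef1 lies before a start inside the gene, and the other listed starts of Lef1 held no match.
Sp5: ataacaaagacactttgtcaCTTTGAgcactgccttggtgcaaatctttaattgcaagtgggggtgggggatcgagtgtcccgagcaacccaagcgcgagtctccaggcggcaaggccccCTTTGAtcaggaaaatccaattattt
Lef1: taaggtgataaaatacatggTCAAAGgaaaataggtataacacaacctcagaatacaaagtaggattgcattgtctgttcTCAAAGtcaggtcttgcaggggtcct
Both genes were the lowest of the set at E16.5. The windows of Axin2, Glul, Lgr4, Nkd1 and Rnf43 held no match. A match is a run of letters and says nothing of binding.

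Glul (ENSMUSG00000026473.15, chromosome 1 from 153899944 to 153909723, forward strand) encodes glutamine synthetase, which joins ammonia to glutamate. Of its exon sequence 6.29% is shared with Teddm2, on the opposite strand, and Mir8114. It had 236, 227 and 279 TPM at E16.5 (replicates A, B and C), against 184, 121 and 205 TPM at E18.5. The E18.5 libraries were all lower, and the mean was 1.455-fold higher at E16.5. The difference of -0.57 ± 0.21 did not pass the test (limma adjusted p = 0.074), nor did -1.02 ± 0.275 with median-of-ratios scaling (limma adjusted p = 0.0509). Over 15 alternatives it lay between -1.02 and -0.34, and 2 called it. Hepatoblast RNA had the same order among the E18.5 libraries. The summed levels of 12 hepatoblast genes were 86460, 42080 and 103900 TPM in A, B and C of E18.5. At E16.5 these sums were 181400, 190100 and 230600 TPM, lowest in A, while Glul was lowest in B. Of these genes 8 fell, beside 5.22% of all genes tested (7 with median-of-ratios scaling, beside 10.4%). None of them rose, their median was -1.35, and their part in the Glul level was not tested.

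Other genes of the adult pericentral zone moved in both directions. Of 11 listed, 10 were tested, 3 fell, 1 rose and 6 did not pass, where 5.22% of all genes tested fell and 26.0% rose. With median-of-ratios scaling limma called 3 of them lower and 0 higher, beside 10.4% and 6.80% of all genes. Lect2, a secreted protein of hepatocytes, fell from 79.2, 88.9 and 76.5 TPM to 18.3, 18.7 and 17.4 TPM (-2.105 ± 0.11, limma adjusted p = 0.00315). Avpr1a, a vasopressin receptor, fell by 1.14 on the log2 scale (limma adjusted p = 0.0121), and Gulo was the third. Cldn2, a tight junction protein, rose from 27.9, 34.9 and 11.8 TPM to 50.7, 58.7 and 52.3 TPM (limma adjusted p = 0.0415), a call lost with median-of-ratios scaling (limma adjusted p = 0.141). The most abundant, Rgn and Oat, did not pass, with log2 fold changes of -1.04 and 0.33.

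Of 9 further Wnt targets 8 were tested, 2 rose and 1 fell, beside 26.0% and 5.22% of all genes tested. This list shares genes with the lists of nuclear effectors and antagonists below. The count that rose was near the share of all genes. Nkd2, a relative of Nkd1, rose from 0.846, 0.8235 and 1.77 TPM to 3.97, 3.12 and 4.08 TPM (limma adjusted p = 0.0248), a call lost with median-of-ratios scaling (limma adjusted p = 0.104). Bambi, a pseudoreceptor for TGF-beta family signals, rose from 10.2, 12.85 and 6.865 TPM to 27.3, 24.4 and 24.7 TPM (limma adjusted p = 0.012). Tbx3, a transcription factor of hepatoblasts, fell from 5.95, 5.57 and 4.22 TPM to 1.83, 1.39 and 2.16 TPM (limma adjusted p = 0.0177). Bambi and Tbx3 kept their calls with median-of-ratios scaling. Ccnd1 and Myc, the most abundant, did not pass, with log2 fold changes of 0.48 and 0.02.

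Among the ligands, 10 of 21 genes for Wnt proteins and their secretion were tested, and 7 rose and none fell. Of all genes tested 26.0% rose and 5.22% fell. Their median was 1.29 on the log2 scale. Wnt4 had the highest mean over the 6 libraries, although Wls was higher at E16.5 (11.8 against 11.0 TPM), and rose from 12.6, 14.1 and 6.28 TPM to 46.0, 57.2 and 42.2 TPM (2.099 ± 0.29, limma adjusted p = 0.0089). Wnt9a rose from 1.26, 0.886 and 0.7155 TPM to 11.3, 7.52 and 13.2 TPM (2.56 ± 0.27, limma adjusted p = 0.00735). Wnt5a, Wnt2 and Wnt7b rose by 1.94, 1.465 and 1.46, and Wls, which carries Wnt proteins to the surface, by 0.55. With median-of-ratios scaling 3 were called (Wnt4, Wnt5a and Wnt9a), with a median of 1.02, beside 6.80% of all genes called higher. Of 4 R-spondins, the ligands of LGR4 and LGR5, 2 were tested. Rspo1 rose from 0.963, 0.1985 and 0.0647 TPM to 2.87, 4.745 and 3.81 TPM (limma adjusted p = 0.0144) and kept its call with median-of-ratios scaling. Wnt9a and Rspo1 had means of 0.954 and 0.409 TPM at E16.5 and reached the filter only through E18.5, where they were high, a limit on both calls. Rspo3 had 2.265, 1.20 and 1.62 TPM at E16.5 (replicates A, B and C), against 2.60, 6.27 and 5.74 TPM at E18.5, and did not pass (limma adjusted p = 0.0516).

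Mesothelial genes moved with these ligands, since 4 of 4 rose, beside 26.0% of all genes tested. Their summed levels were 2.01 to 8.03 TPM at E16.5 and 32.2 to 73.5 TPM at E18.5. Of 7 endothelial genes 1, Emcn, rose, with sums of 93.5 to 154 and 95.0 to 187 TPM. That call was lost with median-of-ratios scaling (limma adjusted p = 0.127). The biliary sum given for Lgr4 was higher in each E18.5 library too, and the mesenchyme sum given for Nkd1 was higher in replicates B and C of E18.5 than in any E16.5 library. Among the E16.5 libraries, replicate C was the lowest for Wnt4, Wnt5a and Wnt7b and for the biliary, mesothelial and endothelial sums. The mesothelial sum was 8.03, 2.33 and 2.01 TPM in A, B and C of E16.5. Upk1b of the mesothelial list and Emcn of the endothelial list were under 1 TPM in mean at E16.5 and reached the filter only through E18.5. The part of these cells in the ligand levels was not tested.

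Receptors and core components lay nearer to the median of all genes. Beside the counts that follow, 26.0% of all genes tested rose and 5.22% fell (6.80% and 10.4% with median-of-ratios scaling). Of 11 tested receptor genes 6 rose and none fell (median 0.62). The co-receptors Lrp6 and Lrp5, the most abundant, rose by 0.69 and 0.62, and Fzd9 and Fzd6 by 1.53 and 1.17. The last pair made up the 2 calls with median-of-ratios scaling, but Fzd9, with a mean of 0.6145 TPM at E16.5, reached the filter only through E18.5. Of 12 genes for Dishevelled and the degradation complex 6 rose and none fell (median 0.495), and the most abundant, Csnk1a1 and Fbxw11, did not pass. Of 8 nuclear effectors 5 rose and none fell (median 0.67). Ctnnb1, the gene of beta-catenin, rose from 317, 319 and 231 TPM to 441, 494 and 399.8 TPM (0.63 ± 0.165, limma adjusted p = 0.0295), and Bcl9l rose by 0.56.

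With median-of-ratios scaling limma called none of the 12 degradation complex genes, with 1 higher and 1 lower at an unadjusted p under 0.05, and limma voom called 4 higher. It called none of the 8 effectors, with 2 higher at an unadjusted p under 0.05, and limma voom called 4 higher. Ctnnb1 stood at 0.18 in that scaling (limma adjusted p = 0.26). For ligands, receptors, complex and effectors with TPM as deposited, 0 genes were lower at an unadjusted p under 0.05 and 0 were called lower by limma voom. Over all genes limma voom called 4190 of 20425 higher and 1362 lower. The share of all genes at an unadjusted p under 0.05 was not counted. Of 16 antagonists 8 were tested, and 2 rose, beside 26.0% of all genes tested. Kremen1, a receptor for Dickkopf proteins, rose by 1.06 (limma adjusted p = 0.0133) and kept its call with median-of-ratios scaling, and Sfrp1, a secreted Wnt-binding protein, rose by 0.87 (limma adjusted p = 0.0238) and did not.

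**Figure D4:**
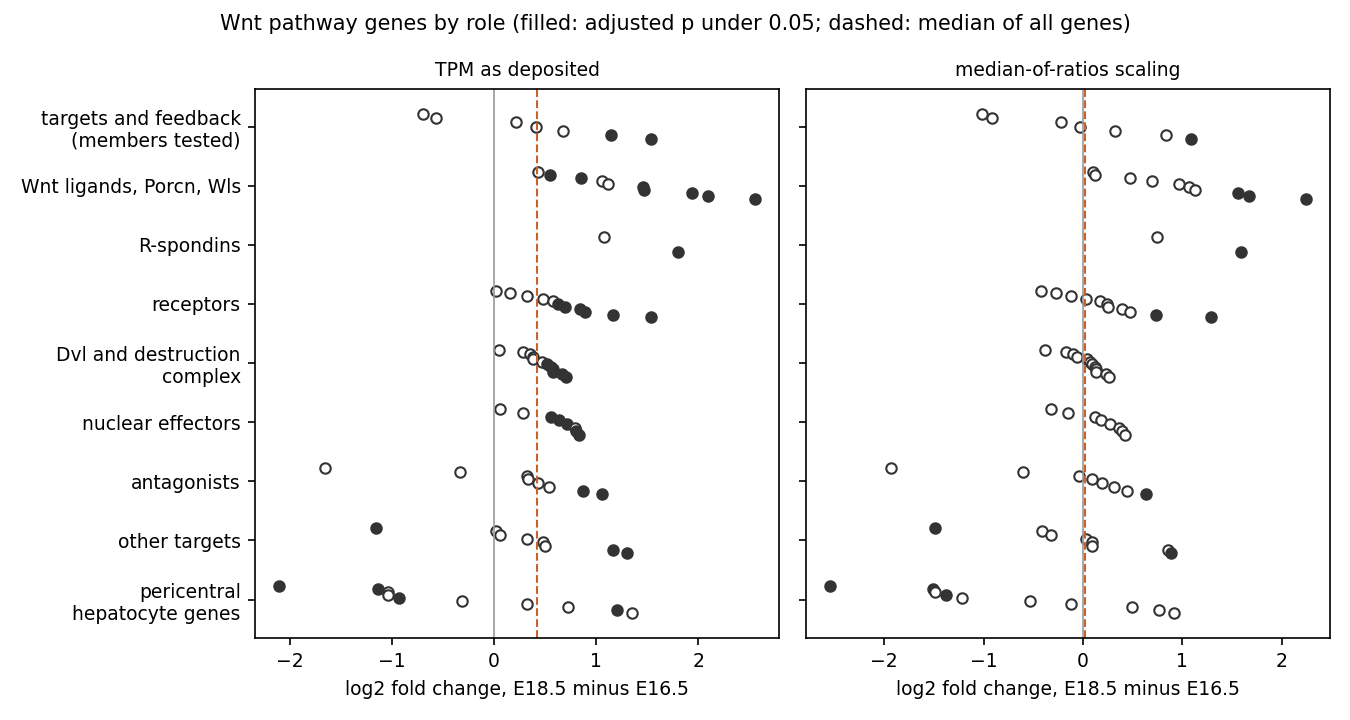
Log2 fold change of TPM + 1 (horizontal axis, E18.5 minus E16.5) of each tested gene by role, 1 point a gene, with TPM as deposited at left and median-of-ratios scaling at right, filled points for an adjusted p under 0.05 from limma and a dashed line at the median of all genes (0.42 and 0.02). Ligands reach 2.56 at left, while genes of the degradation complex lie between 0.05 and 0.705.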

How the data were processed

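RNA-seq of sorted GFP-positive cells gave 6 libraries, grouped by the stage in the labels. The authors used FastQC 0.11.7, Trimmomatic, HISAT2 2.1.0 (GRCm38) and HTSeq 0.5.4p3 (GENCODE vM15), and the deposited values are TPM that sum to 1000000 a library. Names, positions and exon lengths came from GENCODE vM21, which matched 52403 identifiers. From TPM and exon length, read numbers were recovered (100.0% whole within 0.01 for identifiers of the same version). They served for depth, intervals and limma voom.

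log2(TPM + 1) was tested with limma 3.58.1 in R 4.3.3 (eBayes with trend, Benjamini-Hochberg adjustment over all genes tested). Tested on simulated data with a dispersion of 0.03 over 20240 genes, this called 92.9% of 4-fold, 28% of 2-fold and 0.0349% of unchanged genes. The changed genes were drawn from those with more reads, and every gene had the same dispersion. No general shift between the stages was put in, so these rates may not hold for the real libraries. Ratios were tested by exact permutation (Python 3.11.15). The members and lists were chosen with earlier results of these data known. From the lists, genes past the threshold with a change of 1 or more (log2) and the 2 most abundant were named, and Gulo was named after its value was seen. Alternatives were another pseudocount, 2 other filters, 2 other scalings, other eBayes settings, a replicate block, limma voom and leaving out each library.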

Additional observations from a re-analysis of the deposited data

How the results depend on the processing

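Of 101 values of the 7 tested genes under the alternatives, 81 kept their direction and side of the threshold, 10 lost a call (all of Nkd1), 7 gained one and 3 turned. Those that turned were Rnf43 with median-of-ratios scaling (-0.22) and quantile normalization (-0.12) and Znrf3 with median-of-ratios scaling (-0.027). The number of the genes called, 2, became 1 without the filter on low values, 1 with median-of-ratios scaling, 4 with limma voom and 1 in each fit without a library. Among all genes 7000 were called, against 4282 without the filter, 3862 with median-of-ratios scaling (39.5% of them higher, against 83.3%), 3796 with quantile normalization (50.5% higher) and 1472 (without replicate A of E18.5) to 5686 in the fits without a library. The log2 ratio of Axin2 to Axin1 was 0.15 with a pseudocount of 0.1 and -0.29 to 0.12 without a library, and that of Lef1 to Tcf7l2 was 0.28 with a pseudocount of 0.1. The cause was not tested.

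Same-lettered libraries did not all deviate together (correlations of -0.042, 0.081 and 0.14 for A, B and C), so the letters were not taken as pairs. With the replicate block 7314 genes were called, and of the 9 genes Lgr4, Znrf3 (limma adjusted p = 0.0467) and Glul (limma adjusted p = 0.0365) but not Nkd1 (limma adjusted p = 0.0512). Lgr5 had no value without replicate A of E16.5, where its mean fell below the filter. Depth limits Sp5, Lef1 and Lgr5 the most, above all at E18.5.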

Other observations

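The secreted antagonist Sfrp5, named after its values were seen, had 15.2, 5.40 and 1.52 TPM at E16.5 (replicates A, B and C), against 1.23, 0.721 and 1.17 TPM at E18.5, and its difference of -1.66 did not pass the test (limma adjusted p = 0.0808). Pancreatic acinar genes were highest in the same library, replicate A of E16.5, with summed levels of 6 genes at 2406, 220.3 and 77.6 TPM in A, B and C of E16.5 and 14.4 to 52.6 TPM at E18.5. Of these genes 5 were tested and 2 fell, beside 5.22% of all genes tested. With median-of-ratios scaling limma called 0 of them lower, with 3 lower at an unadjusted p under 0.05, and limma voom called 0 of 4 lower. Their part in the Sfrp5 level was not tested. Notum, a secreted feedback inhibitor also named after its values were seen, was below the filter and had 0.775, 0.586 and 1.145 TPM at E16.5 (replicates A, B and C), against 0.425, 0.244 and 0.102 TPM at E18.5. Its stages did not overlap (limma adjusted p = 0.173 without the filter).

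Among lists for other cells, 10 of 11 biliary genes rose (median log2 fold change 1.68), as did 2 of 8 mesenchyme genes (1.08) and 3 of 8 B lymphoid genes (0.705), while 6 of 6 megakaryocyte genes fell (-4.43). With median-of-ratios scaling the counts were 5 biliary, 1 mesenchyme and 2 B lymphoid genes that rose and 6 megakaryocyte genes that fell. Of all genes tested, 26.0% rose and 5.22% fell with TPM as deposited, and 6.80% and 10.4% with median-of-ratios scaling. The B lymphoid genes that rose were under 1 TPM in mean at E16.5 and reached the filter only through E18.5. Of 6 proliferation genes limma called none, with 1 lower at an unadjusted p under 0.05 and 1 called lower by limma voom, and 5 fell with median-of-ratios scaling.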
